A study of Mus musculus with 144 samples.

Results

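Nuclear RNA of wild-type mouse liver was compared between ZT2 and ZT14, that is, between 2 h after lights on and 2 h after lights off. The 12 libraries, 6 at each time, were picked by their labels from the 144 libraries of the series, 36 of which are wild-type nuclear RNA taken at 6 times of day. All 12 come from livers of male C57BL/6J wild-type mice housed in a cycle of 12 h light and 12 h dark, with food and water always available. Nuclei were washed in hypotonic buffer and spun through sucrose. The RNA was read as 3′ ends of polyadenylated transcripts, and each count is taken as a transcript end, which was not checked here. Libraries of 3 other kinds, 12 of each at these times, serve below as comparisons: total and polysomal RNA of wild-type livers, and total RNA of livers of Bmal1-/- mice of the same strain, which lack BMAL1. The labels give no age and do not say whether libraries of a group come from separate mice, so the p-values measure the spread between these libraries.

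The liver clock is a feedback loop in which BMAL1 (gene Arntl) and CLOCK bind E-box elements and switch on the Per, Cry and Nr1d genes, whose products then hold BMAL1 and CLOCK or their transcription back. A further layer of D-box factors, DBP, TEF and HLF against the repressor NFIL3, passes the rhythm on to genes of heme, bile acid, lipid and drug metabolism. Feeding, body temperature and glucocorticoids, which also change between day and night, act on many of the same genes. Nuclear RNA holds newly made transcripts and those not yet exported, and is therefore closer to transcription than total RNA.

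Depth was 3220924 to 6620128 gene counts a library at ZT2 and 3018030 to 5269437 at ZT14. Levels are given as CPM, gene counts scaled to library size with TMM factors over the 36 nuclear libraries. The hepatocyte gene Alb was read at 20379 ± 5272 CPM at ZT2 and 19087 ± 9384 CPM at ZT14 (SD, n = 6 each). Neat1, a transcript retained in nuclei, stood at 963 ± 442 CPM in nuclear and 174 ± 46.2 CPM in total RNA at ZT2, whereas Malat1, also known as nuclear, stood at 1327 ± 1021 and 1545 ± 765 CPM (SD, n = 6 each). Mitochondrially encoded genes took 3.58% to 9.06% of the counts, and these are made outside the nucleus.

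The library labelled ZT14 replicate 4 stood apart in clock genes. Npas2, a partner of BMAL1, was read at 6.27 CPM in it and at 0.518 CPM or less in the other 5 ZT14 libraries. Nr1d1 was at 0.836 CPM against 6.96 CPM or more in those 5. The total RNA library labelled ZT14 replicate 4 also stood apart (Npas2 5.48 CPM against 0.22 or less, Nr1d1 0.41 against 2.31 or more), and in polysomal RNA it was the library labelled ZT14 replicate 3 (Npas2 16.8 CPM against 0, Nr1d1 0.91 against 7.89 or more). For 45 of the 69 genes called below, replicate 4 was the ZT14 library nearest to the ZT2 levels, against 2 to 8 genes for each of the other 5. Why it differs was not tested. It stays in the comparison as labelled, and results are given with and without it.

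Of 11279 genes tested with edgeR's quasi-likelihood test, 69 differed between the times at a Benjamini-Hochberg adjusted p under 0.05, which is 0.612% of the genes. Of these, 52 were higher at ZT14 (0.461% of genes tested) and 17 were lower (0.151%). Among them, 22 of the higher genes and 5 of the lower ones changed at least 4-fold. Their median log2 change was 1.80 among the higher and -1.73 among the lower genes, beside 0.01 over all genes tested. The called genes were picked by the test on these same values, which favours large changes. In 32 of the 69 genes, 21 higher and 11 lower, the 6 ZT14 libraries did not overlap the 6 ZT2 libraries in CPM, as was so for 76 of all genes tested (0.674%), 39 higher (0.346%) and 37 lower (0.328%). Without ZT14 replicate 4 the test called 154 of 11275 genes (1.37%), 91 higher and 63 lower, and all 69 remained among them. The share of calls that were higher was then 59.1% in place of 75.4%. Leaving out other single libraries lowered the count, to 41, 27, 26 and 18 without ZT2 replicates 2, 4, 5 and 6, and to 42, 36 and 37 without ZT14 replicates 1, 5 and 6. Of the 69 genes, 18 were called in all 12 fits that leave out 1 library (13 higher, 5 lower), and none changed direction in any of them. At an unadjusted p under 0.05 there were 981 genes (8.70%), 542 higher (4.81%) and 439 lower (3.89%).

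**Figure D1:**
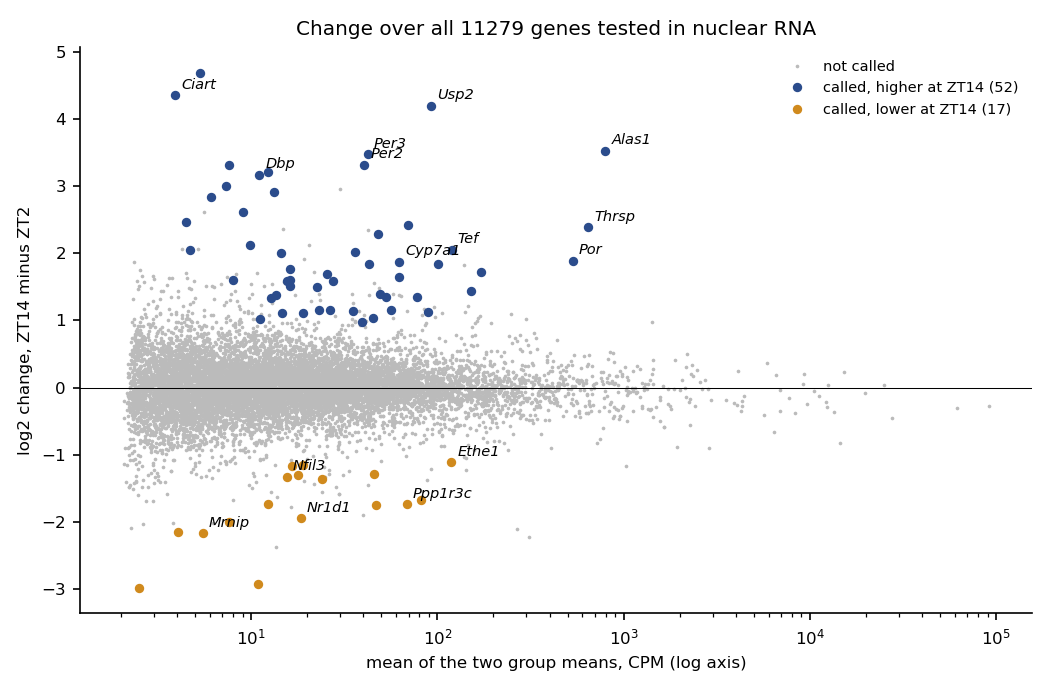
Change in nuclear RNA between ZT14 and ZT2 for each of the 11279 genes tested: the y axis is the log2 change (ZT14 minus ZT2) and the x axis the mean level, and genes past the adjusted threshold are coloured by direction. The 52 genes higher at ZT14 and the 17 lower ones were picked by the test on these same values. They lie far from the bulk, whose median is 0.01, and clock genes are among the farthest from it.

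The period genes, which encode the repressors at the core of the loop, rose together at ZT14. Per2 was read at 4.97, 7.07 and 11.3 CPM (lowest, median, highest of 6) at ZT2 and at 37.0, 57.2 and 129 CPM at ZT14, a log2 change of 3.32 (SE 0.34, edgeR adjusted p = 4.66e-05). Per1 went from 0.333, 1.85 and 6.59 to 11.5, 22.4 and 37.0 CPM (log2 3.21, SE 0.47, edgeR adjusted p = 0.003). In both, every ZT14 library lay above every ZT2 library, with replicate 4 the lowest of the ZT14 libraries. Per3 changed by 3.47 (SE 0.61, edgeR adjusted p = 0.0199), from 1.83, 5.90 and 16.8 to 10.9, 86.0 and 128 CPM, and there the groups overlapped through replicate 4 alone, whose 10.9 CPM was under the highest ZT2 library. Without that library the log2 change of Per3 was 3.70 (SE 0.47, edgeR adjusted p = 0.000273).

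Ciart, which encodes a repressor of BMAL1 and CLOCK, was at 0, 0.250 and 0.851 CPM at ZT2 and at 0, 7.78 and 15.6 CPM at ZT14, and the single ZT14 library at 0 was replicate 4. Its log2 change was 4.35 (SE 0.84, edgeR adjusted p = 0.021). Bhlhe40, a repressor that binds E-boxes itself, rose from 7.04, 15.8 and 28.1 to 34.0, 52.3 and 167 CPM with no overlap (log2 2.28, SE 0.40, edgeR adjusted p = 0.0125), and it was called in 11 of the 12 fits that leave out 1 library. The cryptochromes, which join the PER proteins, did not pass the test. Cry1 had a log2 change of 0.71 (SE 0.24, edgeR adjusted p = 0.335) and Cry2 one of 0.67 (SE 0.25, edgeR adjusted p = 0.407).

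The REV-ERB and ROR receptors compete for the same element, which controls Arntl. Nr1d1 (REV-ERB alpha) fell, from 18.8, 29.8 and 42.3 CPM at ZT2 to 0.836, 8.39 and 10.4 CPM at ZT14, with no overlap (log2 -1.95, SE 0.36, edgeR adjusted p = 0.0167). Without replicate 4, its lowest library, the log2 change was -1.70 (SE 0.25, edgeR adjusted p = 0.000672). Nr1d1 overlaps Thra on the opposite strand, and how the counting treated strand is not given in the sources used here. Thra had a log2 change of -0.83 (SE 0.21, edgeR adjusted p = 0.0978), and of -0.99 without replicate 4 (SE 0.20, edgeR adjusted p = 0.0141). Its part in the Nr1d1 counts was not tested. Nr1d2, the paralogue of Nr1d1, had a log2 change of 1.17 (SE 0.49, edgeR adjusted p = 0.486) and did not pass. Rora, a receptor that activates through the element, stood at 65.5 ± 12.9 CPM at ZT2 and 59.4 ± 13.2 CPM at ZT14 (SD, n = 6 each), a difference within the spread.

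Arntl and Clock did not pass the test. Arntl was read at 22.1, 44.0 and 73.7 CPM at ZT2 and at 8.24, 20.3 and 50.4 CPM at ZT14, with the 50.4 CPM in replicate 4 (log2 -0.94, SE 0.38, edgeR adjusted p = 0.476). Without that library the log2 change was -1.28 (SE 0.36, edgeR adjusted p = 0.102). Clock had a log2 change of -0.39 (SE 0.23, edgeR adjusted p = 0.734). Npas2 and Bhlhe41 fell under the mean of 10 counts needed for the test. Of the 9 clock repressors tested, 5 were called higher and 1 lower, beside 0.461% and 0.151% of all genes tested.

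Of the D-box factors, Dbp and Tef rose and the opposing repressor Nfil3 fell. Dbp went from 0.999, 2.14 and 3.97 CPM to 1.88, 26.0 and 29.1 CPM (log2 3.17, SE 0.56, edgeR adjusted p = 0.0151), with replicate 4 at 1.88 CPM and the other 5 ZT14 libraries at 6.99 CPM or more. Tef went from 29.3, 43.1 and 70.6 to 82.8, 218 and 234 CPM without overlap (log2 2.05, SE 0.28, edgeR adjusted p = 0.00128). Nfil3 stood at 18.3, 22.7 and 25.8 CPM at ZT2 and at 3.81, 8.68 and 13.4 CPM at ZT14, again without overlap (log2 -1.32, SE 0.25, edgeR adjusted p = 0.017). Hlf had a log2 change of 0.91 (SE 0.22, edgeR adjusted p = 0.0727) and passed only without replicate 4 (1.02, SE 0.21, edgeR adjusted p = 0.0135). Dbp overlaps Sphk2, and 30 of the 61 called genes matched in the RefSeq table overlap another gene.

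**Figure D2:**
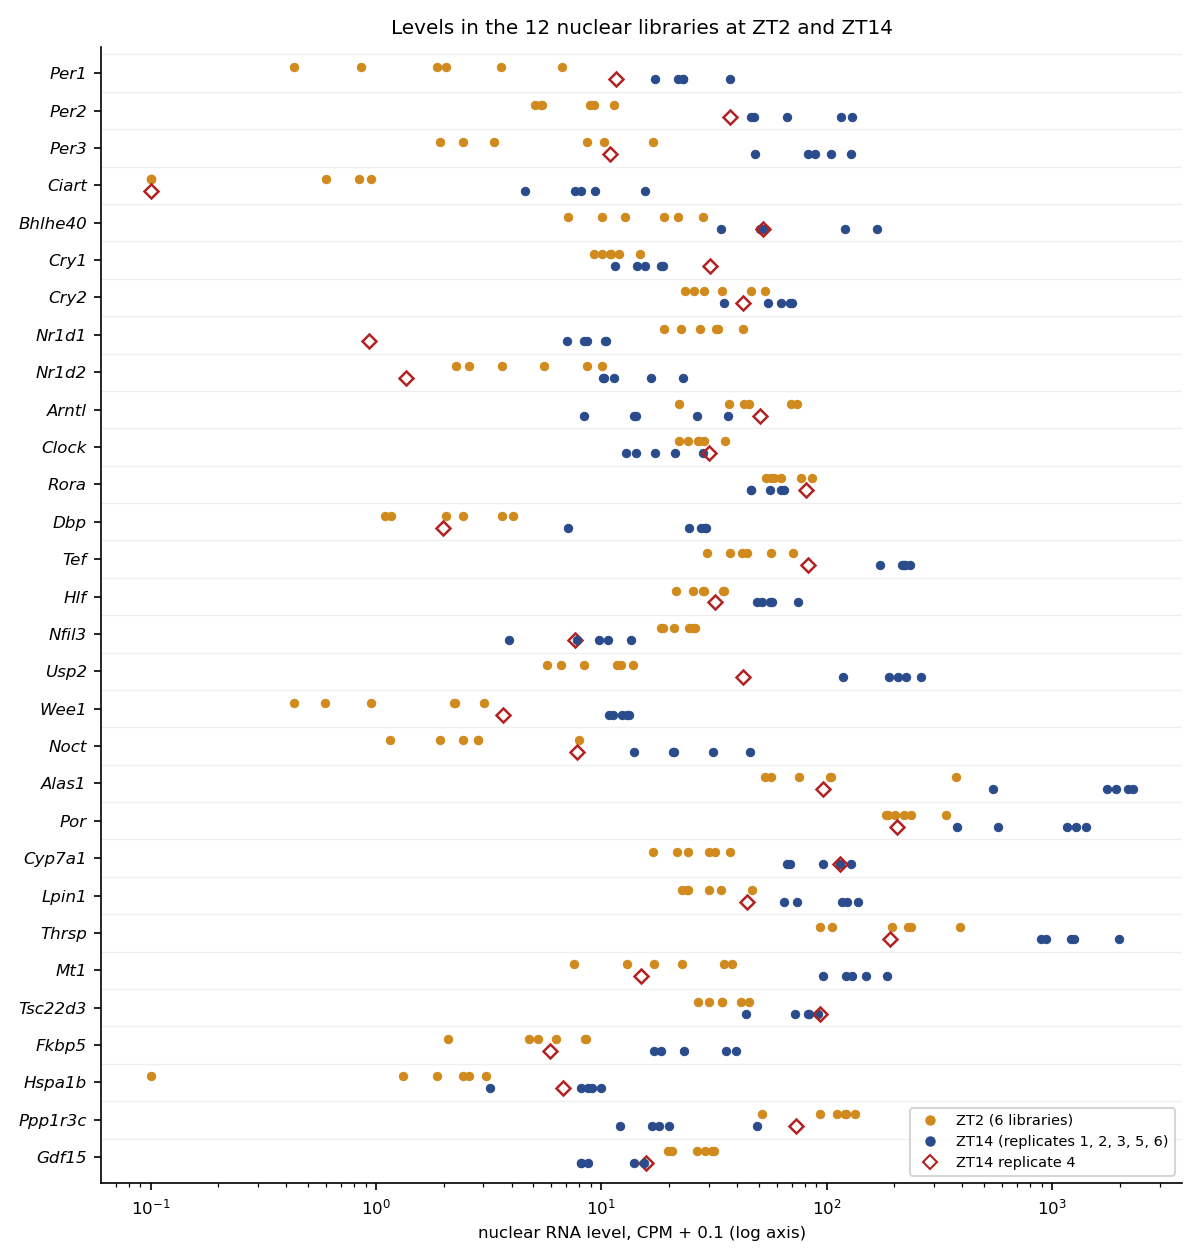
Nuclear RNA level of 30 named genes in each of the 12 libraries, in CPM on a log axis, with ZT2 and ZT14 side by side and the library labelled ZT14 replicate 4 drawn as a red open diamond. In Per3, Dbp and Ciart that library lies with the ZT2 libraries, whereas in Per2, Per1 and Tef it is the lowest of a ZT14 group that does not overlap ZT2.

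The 6 promoters shown were chosen because they hold a searched motif, after the search was run, since the clock acts through short elements near the start site. Where a gene has several RefSeq starts, as Per1 and Tef do, the one with most matches is given. The promoters of Dbp, Nfil3, Nr1d1 and Usp2 held none of the motifs in this window. The sequences are the 250 bases before the RefSeq start (build GRCm38.p6), each on its gene's strand. Capitals mark the E-box CACGTG, the D-box TTATGTAA or the glucocorticoid element (GNACA and TGTNC with 3 bases between them), read on both strands. Ciart (chr3:95882229-95882478, - strand) holds 3 E-boxes, starting 116, 58 and 44 bases before the start. Per1 (chr11:69098699-69098948, + strand) holds 1 at 166 bases, and Tef (chr15:81802423-81802672, + strand) holds 1 at 127 bases. Per3 (chr4:151044666-151044915, - strand) holds D-boxes at 205 and 158 bases. Slc16a12, which encodes a solute transporter (chr19:34747329-34747578, - strand), holds an E-box at 240 and a D-box at 76 bases. Mt1, which encodes the metal-binding metallothionein and answers to glucocorticoids (chr8:94178839-94179088, + strand), holds the glucocorticoid element at 94 bases.
Ciart: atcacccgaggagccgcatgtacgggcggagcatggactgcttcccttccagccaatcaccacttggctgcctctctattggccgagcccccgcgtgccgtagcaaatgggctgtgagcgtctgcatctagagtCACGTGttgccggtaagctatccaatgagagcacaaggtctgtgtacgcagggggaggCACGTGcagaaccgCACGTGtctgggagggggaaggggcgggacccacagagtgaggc
Per1: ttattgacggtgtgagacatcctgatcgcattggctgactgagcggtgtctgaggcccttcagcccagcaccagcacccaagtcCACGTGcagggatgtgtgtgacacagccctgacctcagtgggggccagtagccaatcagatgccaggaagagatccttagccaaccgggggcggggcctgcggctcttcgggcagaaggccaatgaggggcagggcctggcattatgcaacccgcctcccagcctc
Tef: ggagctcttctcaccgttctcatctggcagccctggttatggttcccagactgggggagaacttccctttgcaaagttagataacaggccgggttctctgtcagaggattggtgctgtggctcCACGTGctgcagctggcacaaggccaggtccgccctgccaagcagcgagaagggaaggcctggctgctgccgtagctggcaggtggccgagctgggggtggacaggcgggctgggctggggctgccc
Per3: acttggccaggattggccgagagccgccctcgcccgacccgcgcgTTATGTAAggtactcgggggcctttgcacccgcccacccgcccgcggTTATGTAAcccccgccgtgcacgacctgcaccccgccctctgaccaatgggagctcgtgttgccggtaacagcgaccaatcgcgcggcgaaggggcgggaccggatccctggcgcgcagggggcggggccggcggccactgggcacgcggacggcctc
Slc16a12: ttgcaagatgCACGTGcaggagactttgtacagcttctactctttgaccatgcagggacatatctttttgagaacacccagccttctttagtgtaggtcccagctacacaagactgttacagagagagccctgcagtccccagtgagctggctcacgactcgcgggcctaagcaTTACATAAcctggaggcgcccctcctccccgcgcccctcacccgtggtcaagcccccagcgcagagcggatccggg
Mt1: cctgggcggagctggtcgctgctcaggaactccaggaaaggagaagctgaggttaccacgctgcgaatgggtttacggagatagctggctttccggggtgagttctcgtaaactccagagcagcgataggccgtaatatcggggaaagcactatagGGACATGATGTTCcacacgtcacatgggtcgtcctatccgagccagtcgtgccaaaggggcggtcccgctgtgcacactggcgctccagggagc

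Of the 52 genes higher at ZT14, 37 matched a promoter, and 11 of these held an E-box (29.7%), among them Ciart, Per1, Tef, Fkbp5, Pfkfb3, Il6ra and Slc16a12. Of the 9 matched among the 17 lower genes, 3 held one (33.3%): Bbc3, Gdf15 and Ppp1r3c. Over all 7990 genes tested with a promoter the share was 10.2%. The D-box stood in 2 of the 37 (5.41%, Per3 and Slc16a12) against 0.651% of all, and the ROR element (AANT followed by AGGTCA) in 1 (Ivns1abp) against 0.150%. The glucocorticoid element stood in 1 (Mt1) against 0.263%. No promoter searched had 2 different motifs that overlap. Such matches describe the sequence and were not tied to binding here.

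Clock output genes, many of them metabolic, held more calls than any other list by number, which also depends on list length. Of 18 tested, 8 were called higher and 1 lower, beside 0.461% and 0.151% of all genes tested, with a median log2 change of 1.19. Shorter lists held larger shares, with 5 higher and 1 lower of 9 clock repressors. Of the 4 D-box list genes, 2 were called higher and 1 lower. The lists were chosen with earlier results of these data known. Usp2, which encodes a ubiquitin protease, had the smallest adjusted p of the 69 genes. It was at 5.65 to 13.7 CPM at ZT2 (9.68 ± 3.29, SD, n = 6) and at 42.6, 198 and 263 CPM at ZT14 (log2 4.20, SE 0.39, edgeR adjusted p = 1.33e-05). Every ZT14 library was above every ZT2 library, and replicate 4 was the lowest at ZT14. Wee1, the kinase that holds back mitosis, went from 0.333, 1.48 and 2.92 to 3.55, 11.7 and 13.2 CPM (log2 2.84, SE 0.44, edgeR adjusted p = 0.00359). Noct, which encodes nocturnin, went from 1.06, 2.53 and 7.87 to 7.73, 20.9 and 45.8 CPM (log2 2.91, SE 0.44, edgeR adjusted p = 0.00359). Both were called in all 12 leave-one-out fits, and only Noct overlapped, at its highest ZT2 and lowest ZT14 library.

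Alas1, the first enzyme of heme synthesis in liver, varied widely between libraries. It was at 53.2, 89.3 and 376 CPM at ZT2 and at 96.1, 1836 and 2284 CPM at ZT14 (log2 3.53, SE 0.69, edgeR adjusted p = 0.0289). The overlap came from ZT2 replicate 1 at 376 CPM and ZT14 replicate 4 at 96.1 CPM, and the gene was called in 4 of the 12 leave-one-out fits. Por, which passes electrons to microsomal P450 enzymes, went from 183, 211 and 337 to 206, 871 and 1410 CPM (log2 1.89, SE 0.39, edgeR adjusted p = 0.0302). Lpin1, a phosphatidate phosphatase, was called in all 12 leave-one-out fits, at 30.2 ± 9.03 against 93.6 ± 37.7 CPM (SD, n = 6 each; log2 1.65). Nampt, of NAD salvage, had a log2 change of 1.59 and Upp2, a uridine phosphorylase, one of 1.71, and each was called in 2 of the 12 fits. St5 fell, from 26.7, 34.7 and 43.7 to 4.50, 13.8 and 24.5 CPM without overlap (log2 -1.37, SE 0.30, edgeR adjusted p = 0.0404), and was called in 1 of the 12 fits.

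In the bile acid, lipogenesis and glycogen lists below, 1 gene of each passed. Over all genes tested, 0.461% were called higher and 0.151% lower. Cyp7a1, the rate-limiting enzyme of bile acid synthesis, rose from 16.9, 27.0 and 37.2 to 66.9, 105 and 128 CPM without overlap (log2 1.87, SE 0.24, edgeR adjusted p = 0.000823), and was called in all 12 leave-one-out fits; replicate 4, at 114 CPM, lay among the other ZT14 libraries. It was the only call among 19 bile acid genes. Thrsp, which promotes lipogenesis, went from 93.0, 213 and 390 to 192, 1077 and 1987 CPM, overlapping through replicate 4 at 192 CPM (log2 2.39, SE 0.45, edgeR adjusted p = 0.017), the 1 call among 22 lipogenic genes. Ppp1r3c, which brings a phosphatase to glycogen, fell from 51.8, 116 and 134 to 12.0, 18.8 and 72.7 CPM, with the 72.7 CPM in replicate 4 (log2 -1.73, SE 0.39, edgeR adjusted p = 0.0476). It was the 1 call among 16 genes of glucose and glycogen metabolism. On simulated data, in genes above the median level, the gene test found 3 of 50 changes of 1.5-fold and 26 of 50 of 2-fold. Few calls therefore do not show that the other genes of these lists held their level.

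Of 14 glucocorticoid targets tested, 4 were called higher and none lower, beside 0.461% and 0.151% of all genes tested. Fkbp5, a chaperone of the receptor, went from 1.99, 5.66 and 8.45 to 5.85, 20.7 and 39.3 CPM (log2 2.00, SE 0.39, edgeR adjusted p = 0.0202). Mt1 went from 7.49, 19.8 and 38.1 to 14.8, 126 and 186 CPM (log2 2.41, SE 0.48, edgeR adjusted p = 0.0302). In both genes replicate 4 was the lowest ZT14 library and lay within the ZT2 range. Tsc22d3, which encodes the glucocorticoid-induced leucine zipper, and Zbtb16, a zinc finger repressor, behaved otherwise: replicate 4 was their highest ZT14 library, at 93.0 and 35.9 CPM. Their log2 changes were 1.15 (SE 0.22, edgeR adjusted p = 0.017) and 1.51 (SE 0.32, edgeR adjusted p = 0.0357). In Bmal1-/- total RNA, Mt1 had a log2 change of -1.45 (edgeR adjusted p = 0.98).

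Among 22 heat shock and temperature genes, 2 chaperone genes were called higher, beside 0.461% of all genes tested. Hspa1b rose from 0, 2.05 and 2.98 to 3.11, 8.35 and 9.89 CPM without overlap (log2 2.05, SE 0.45, edgeR adjusted p = 0.039); a near-identical neighbouring copy, Hspa1a, makes the assignment of its reads uncertain. Dnajb1 rose from 5.99, 7.45 and 8.94 to 10.5, 15.5 and 18.4 CPM, also without overlap (log2 1.01, SE 0.23, edgeR adjusted p = 0.0422). The median log2 change of the 22 was 0.30. Each gene lost its call in most fits that leave out 1 library (called in 3 and 1 of 12).

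The other large rises outside those lists included Pfkfb3, which makes an activator of glycolysis (1.06, 3.28 and 7.16 to 7.73, 12.6 and 26.5 CPM, log2 2.11, SE 0.42, edgeR adjusted p = 0.0218), and Lingo4, a membrane protein gene (0.999, 2.16 and 6.34 to 8.71, 13.6 and 25.5 CPM, log2 2.62, SE 0.39, edgeR adjusted p = 0.003). Neither overlapped between the times. Of the lower genes with no overlap and no clone or model symbol, Mrnip, of DNA break repair, fell furthest (7.49, 8.39 and 12.0 to 0.855, 1.86 and 3.34 CPM, log2 -2.17, SE 0.33, edgeR adjusted p = 0.003) and was called in all 12 leave-one-out fits. Bbc3, which encodes the cell death protein PUMA, had a log2 change of -1.17 (edgeR adjusted p = 0.0476), Gdf15, a stress hormone, one of -1.15 (0.0302) and Ethe1, a mitochondrial sulfur dioxygenase, one of -1.11 (0.0371). Rnf125, a ubiquitin ligase, was at 90.2, 131 and 158 CPM at ZT2 and at 16.3, 27.9 and 108 CPM at ZT14. The 108 CPM was replicate 4, and without it the log2 change of Rnf125 was -2.31 (edgeR adjusted p = 4.31e-05) in place of -1.67 (edgeR adjusted p = 0.0442).

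Lists with no call over the 12 libraries hold genes of fasting, amino acid breakdown, endoplasmic reticulum folding, ribosome biogenesis, splicing factors and their kinases, immediate early response, nuclear-retained transcripts and mitochondrial transcripts. Without ZT14 replicate 4, 4 of these lists gained calls. In the fasting list the thioesterases Acot3 (log2 2.89, SE 0.52, edgeR adjusted p = 0.00424) and Acot4 (1.25, SE 0.28, 0.0304) were then called higher, and in endoplasmic reticulum folding Herpud1, of protein degradation at that membrane (1.26, SE 0.28, 0.0287). Called lower were Hal (-1.03, SE 0.25, 0.0413) and Cbs (-1.24, SE 0.26, 0.0164), enzymes of histidine and homocysteine breakdown, and the immediate early factor Egr1 (-2.92, SE 0.62, 0.0235). In the ribosome biogenesis list, 28 of the 30 genes tested were positive, with a median log2 change of 0.30 and 8 at an unadjusted p under 0.05, beside 5749 positive of all 11279 genes tested and a median of 0.01. The 7 marker lists, of hepatocytes and of other cells a liver sample can hold, gave no call. Their median log2 changes were -0.08 for hepatocytes (3 of 9 positive), -0.05 for Kupffer cells (4 of 11), -0.21 for endothelial cells (1 of 11), -0.32 for stellate cells (0 of 10), -0.64 for cholangiocytes (1 of 3) and 0.12 for pancreas and fat (2 of 3). The summed level of the stellate markers was 220 to 459 CPM at ZT2 and 184 to 350 CPM at ZT14, and that of the endothelial markers 293 to 591 and 338 to 427 CPM. Their part in the other results was not tested. Of the blood and immune list 7 genes were tested, with a median log2 change of -0.58, and their summed level was at 1008 to 8235 CPM at ZT2 and 416 to 3150 CPM at ZT14. Among the called genes Igkc, an immunoglobulin gene of plasma cells, was lower at ZT14 (15.8, 24.9 and 38.0 to 6.15, 9.39 and 17.7 CPM, log2 -1.31, edgeR adjusted p = 0.0326). Fewer cells of a type and less RNA per cell cannot be told apart in bulk RNA.

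In all, leaving out ZT14 replicate 4 added 85 genes, 39 higher and 46 lower, of which 13 are in the lists. Elovl3, a fatty acid elongase, was at 433 ± 172 CPM at ZT2 (SD, n = 6) and 43.1 ± 28.0 CPM in 5 ZT14 libraries (SD, n = 5), with 385 CPM in replicate 4. Its log2 change went from -2.10 (edgeR adjusted p = 0.306) to -3.32 (SE 0.41, edgeR adjusted p = 0.000175). Mt2, the second metallothionein, changed by 2.16 (SE 0.45, edgeR adjusted p = 0.0162) and was at 2.93 CPM in replicate 4 against 24.6 CPM or more in the other 5. Nr1i3, the drug receptor CAR, changed by 1.15 (SE 0.24, edgeR adjusted p = 0.0146). Others, chosen after their values were seen, fell at ZT14: Bcl6, a transcriptional repressor, by 2.36, Insig2, which retains the sterol sensor, by 1.73, Ppard by 2.26 and Grk5 by 2.79 on the log2 scale. In replicate 4 the levels of Bcl6 (48.7 CPM), Insig2 (206 CPM) and Grk5 (53.3 CPM) were at or above the ZT2 means of 42.3, 199.8 and 17.1 CPM.

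The 4 other nuclear time points, which the ZT2 and ZT14 comparison did not use, were tested as ZT10 with ZT18 against ZT6 with ZT22. That contrast called 72 of 11113 genes (0.648%), 46 higher and 26 lower. Of the 69 genes called between ZT2 and ZT14, 68 were tested there, 67 had the same sign and 29 were called, 24 higher and 5 lower. Their median log2 change was 0.84 for the higher and -0.73 for the lower genes. Usp2, at 9.68 ± 3.29 CPM at ZT2, rose to 283 ± 36.1 at ZT10 and stood at 174 ± 80.4 at ZT14, 128 ± 46.9 at ZT18 and 39.6 ± 20.7 at ZT22 (SD, n = 6 each). Dbp (107 ± 31.3 CPM) and Tef (315 ± 50.4 CPM) had their highest means at ZT10 and Nr1d1 (84.6 ± 19.8 CPM) at ZT6 (SD, n = 6 each), so ZT14 comes after the highest of the 6 means in each of these genes. Mt1 did not hold its direction: its means were 22.2 at ZT2, 88.7 at ZT6, 88.1 at ZT10, 116 at ZT14, 112 at ZT18 and 123 CPM at ZT22, with SDs of 12.2 to 168, and its log2 change in the neighbouring contrast was -0.07 (edgeR adjusted p = 0.9988).

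**Figure D3:**
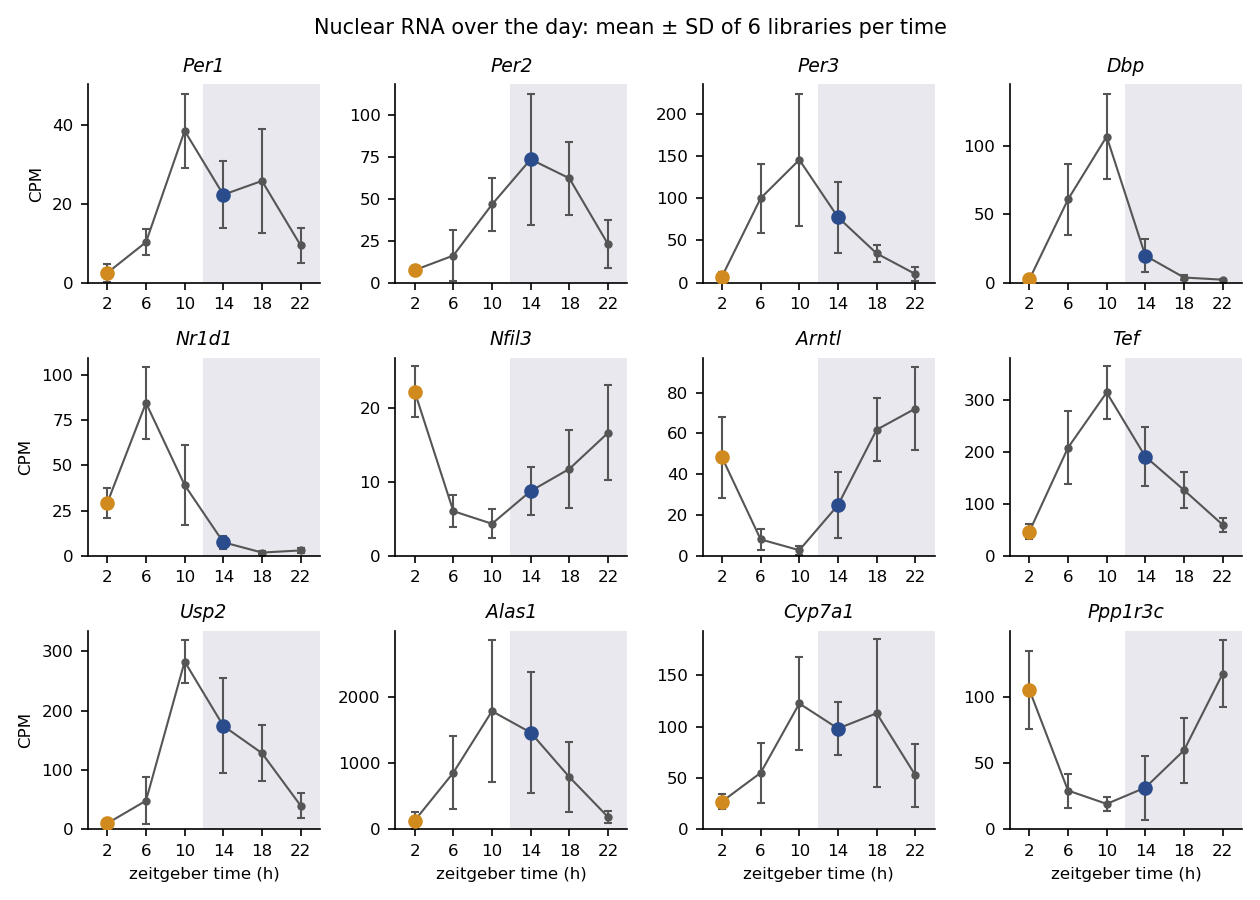
Mean nuclear RNA level of 12 genes over the 6 time points, in CPM, with error bars of 1 SD over 6 libraries and the dark phase shaded. Usp2, Dbp and Tef have their highest means at ZT10 and Nr1d1 at ZT6, and ZT2 is the lowest of the 6 means in Usp2.

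The 3′ ends were also tested site by site. Of 13897 sites, 33 were called (0.237%), 32 higher at ZT14 (0.230%) and 1 lower (0.0072%). The 32 sites belong to 21 genes, 20 of them called as genes, and the other is Errfi1, a feedback inhibitor of growth factor receptors (log2 1.28, SE 0.26, edgeR adjusted p = 0.0493). Errfi1 had 7 sites tested and 1 called, with 6 positive and log2 changes from -0.19 to 1.28. Its called site held in 1 of the 12 fits that leave out 1 library. As a gene it had a log2 change of 0.69 (edgeR adjusted p = 0.489). Leaving out ZT14 replicate 4 gave 97 called sites, and 9 sites were called in all fits that leave out 1 library. In the 20 called genes with a called site, every site tested had a positive change. All 3 Usp2 sites tested were called, at log2 changes of 4.11, 4.67 and 3.95, and lie 1689, 313 and -2 bp before the annotated gene end (chr9:44093854-44093938, chr9:44095298-44095314 and chr9:44095536-44095629, + strand). The single lower site is outside any annotated gene considered (chr6:116652540-116652803, + strand), at 71.4 CPM at ZT2 and 20.3 CPM at ZT14 (log2 -1.79, edgeR adjusted p = 0.0411).

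Alas1 had 8 sites tested and 5 called, with log2 changes of 2.96 to 4.43 among the called ones. The site nearest to the gene end (chr9:106233920-106234133, - strand, 465 bp before it) was at 15.8 ± 8.43 CPM at ZT2 and 122 ± 87.8 CPM at ZT14 (SD, n = 6 each). The strongest site at ZT14 was 7992 bp before it (chr9:106241447-106241572), at 32.6 ± 29.8 and 512 ± 372 CPM (SD, n = 6 each). Whether sites this far inside the gene are true transcript ends was not checked. Cyp7a1 had 5 tested and 3 called, with log2 changes of 1.89 to 2.38 in the called sites. All 5 sites of Cyp7a1 and all 8 of Alas1 had positive changes. At each of the 8 Alas1 sites ZT14 replicate 4 was the lowest ZT14 library and lay within the ZT2 range, which it did at neither the gene-level Usp2 nor Cyp7a1 counts.

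**Figure D4:**
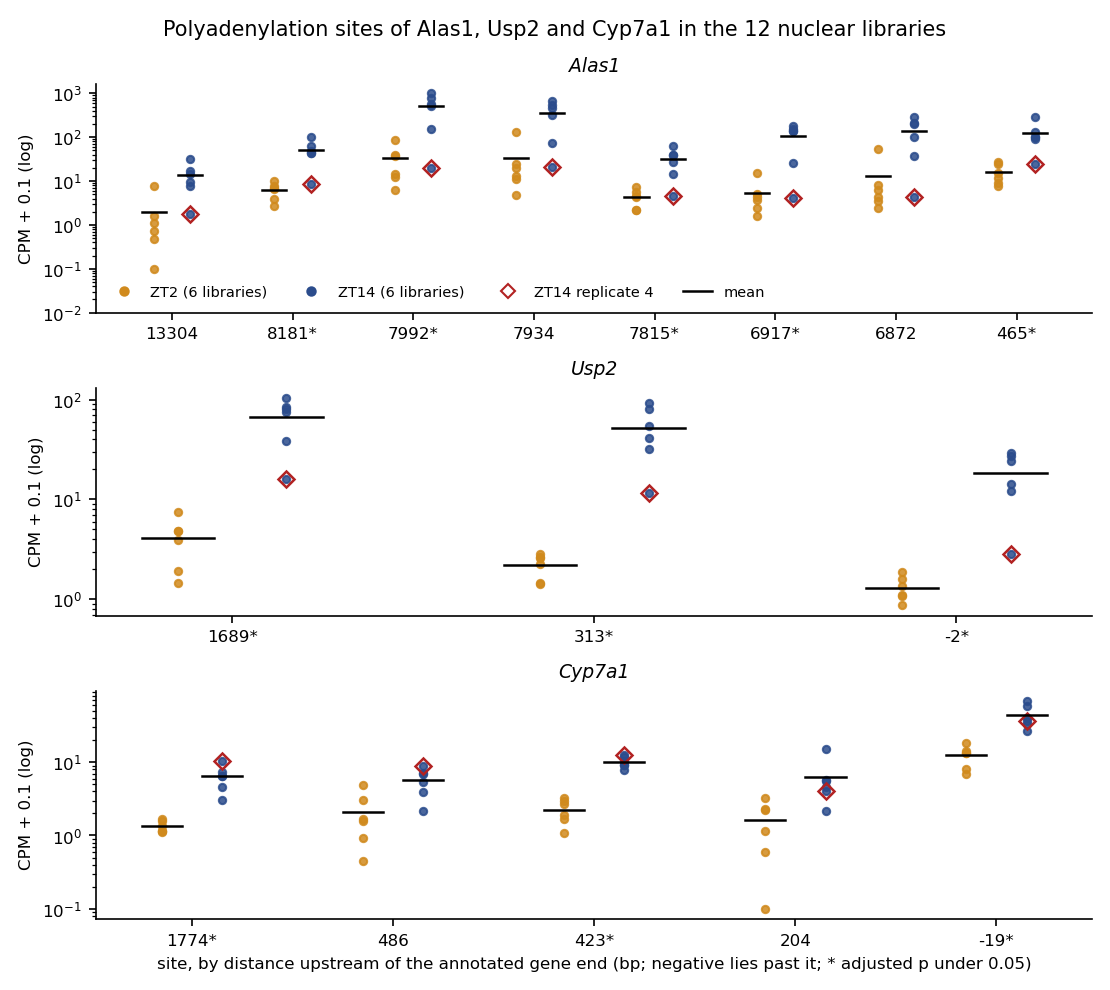
Level of each polyadenylation site of Alas1, Usp2 and Cyp7a1 in the 6 ZT2 and 6 ZT14 libraries, in CPM plus 0.1 on a log axis, ordered by distance from the annotated gene end, with ZT14 replicate 4 as a red open diamond, bars at the means and an asterisk at called sites. Every site of the 3 genes shown has a positive change, including those 6872 to 13304 bases from the gene end in Alas1.

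The share of a gene's counts that each site took did not change detectably. Of 8522 sites in 2933 genes with at least 2 sites, 0 (0%) passed edgeR's quasi-likelihood test of usage, with 164 at an unadjusted p under 0.05 (1.92%). edgeR's diffSpliceDGE test gave 0 as well, with 56. On simulated data the usage test found 6 of 50 changes of 1.5-fold, 21 of 50 of 2-fold and 37 of 50 of 4-fold. The 0 calls therefore do not show that shares were constant. The site with the smallest p was in Cyp2c69, where its share went from 14.98% ± 8.48 to 43.6% ± 16.2 (SD, n = 6 each, edgeR adjusted p = 0.9996). In the 28 called genes with usage tested, 2 of 79 sites reached an unadjusted p under 0.05, and the largest difference was 21.6 percentage points, in Mrnip, beside a median of 2.88. The mean share of counts at the site nearest to the gene end over the 2933 genes was 45.1% ± 1.84 at ZT2 and 44.4% ± 2.23 at ZT14 (SD, n = 6 each), a difference of -0.767 percentage points (exact permutation test, two-sided p = 0.524; smallest possible 0.0022).

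The direction of the change was the same in the other wild-type RNA fractions. In total RNA, 207 of 12016 genes were called (1.72%), 125 higher (1.04%) and 82 lower (0.682%), and of the 69 nuclear genes 63 were tested, all with the nuclear sign, and 47 were called, 40 higher and 7 lower. These 47 are 68.1% of the nuclear calls and 23.5% of the 200 total RNA calls among genes tested in nuclear RNA. Without ZT14 replicate 4 the total RNA test called 560 of 12035 genes. Site by site, 81 of 19840 sites were called in total RNA (0.408%), 61 higher (0.307%) and 20 lower (0.101%). In polysomal RNA 51 of 10624 genes were called (0.480%), and of the 60 nuclear genes tested all had the nuclear sign and 26 were called. That test kept the polysomal library labelled ZT14 replicate 3, which stood apart in clock genes, and was not run without it. Nuclear and total libraries with one number correlated at 0.01 to 0.63 in their deviations from the group means (mean r = 0.27, across genes). Of the 12 pairs, 10 were above 0.1. Whether such pairs share a liver, day or batch was not tested, so the matching signs may not be independent. Median log2 changes of the tested genes were 1.82 and -1.34 in total and 1.67 and -1.61 in polysomal RNA for the higher and lower genes.

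A time effect that differs between fractions was tested directly. The interaction test of nuclear with total RNA on 24 libraries called 0 of 11936 genes (0%), with 249 at an unadjusted p under 0.05, and for polysomal RNA 0 of 11259 (0%), with 358. Both fits treat the 24 libraries as separate. With the library number within each time as a replicate block shared by both fractions the tests also called 0, with 343 and 208 genes at an unadjusted p under 0.05. No same-number pair of nuclear and polysomal libraries correlated above 0.1 in its deviations (0 of 12, mean r = -0.11). The polysomal block therefore rests on a pairing that these libraries do not show. Arntl, for example, had a log2 change 0.73 less negative in nuclear than in total RNA (SE 0.57, edgeR adjusted p = 0.9995). Biological coefficients of variation were 0.356 in nuclear, 0.287 in total and 0.399 in polysomal RNA, which limits what these tests can detect. On simulated data, in genes above the median level, the test with total RNA found 2 of 50 differences of 1.5-fold. It found 9 of 50 of 2-fold and 46 of 50 of 4-fold, so most 2-fold differences would be missed. The 0 calls therefore do not show that the time effects are equal. In Bmal1-/- total RNA the same 2 times gave 0 calls among 12091 genes (0%), with 441 at an unadjusted p under 0.05. Of the 60 nuclear genes tested there, 41 had the nuclear sign, at median log2 changes of 0.14 and -0.21 for the higher and lower genes. Usp2 was at 6.56 CPM at ZT2 and 9.44 CPM at ZT14 in these livers against 1.78 and 57.4 CPM in wild-type total RNA (means, n = 6 each), and Dbp at 2.87 and 2.56 CPM against 1.02 and 19.8 CPM. The highest changes in Bmal1-/- livers among these genes were in Noct (log2 1.497, SE 0.50), Pfkfb3 (1.38, SE 0.45), Hspa1b (1.01, SE 0.29) and Per1 (0.96, SE 0.31), each at an edgeR adjusted p of 0.98. Pfkfb3 was at 3.84 ± 1.47 and 10.1 ± 7.32 CPM and Per1 at 2.75 ± 1.47 and 5.49 ± 1.45 CPM (SD, n = 6 each). The difference of the time effect between the genotypes was not tested, and Bmal1-/- nuclear RNA was not analysed here.

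**Figure D5:**
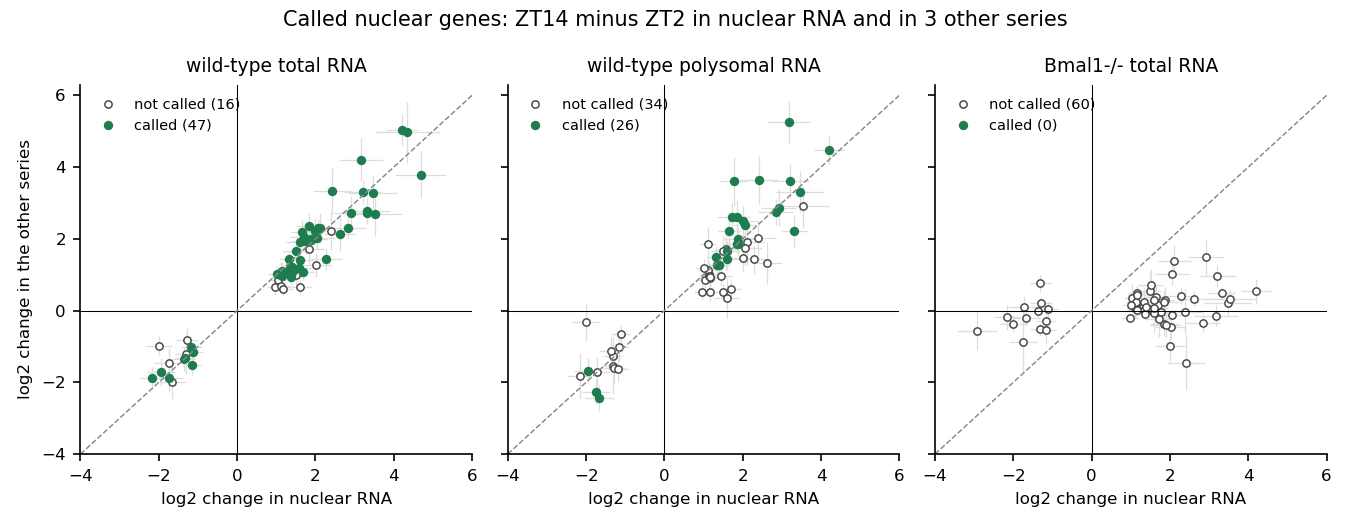
Log2 change (ZT14 minus ZT2) of the called nuclear genes in nuclear RNA (x axis) against the same in total RNA, polysomal RNA and Bmal1-/- total RNA (y axes), with genes called in the second set filled. In total and polysomal RNA all 63 and 60 genes tested lie in the same direction, 47 and 26 of them called, and in Bmal1-/- total RNA, where none of the 60 was called, the values run from -1.45 to 1.497 and 41 keep the nuclear sign.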

How the data were processed

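Gene counts and counts at polyadenylation sites were deposited by the authors as whole-number tables of the series, and both were used as deposited. Libraries were made with a QuantSeq 3′ mRNA kit, per the labels' protocols. STAR 2.4.2a, HOMER and edgeR, and the builds mm10 and GRCm38.p5, are named per the submitters' processing notes, without their roles. The members and gene lists were chosen with earlier results of these data known.

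The fit took each gene or site whose mean reached 10 counts, in edgeR 4.0.16 under R 4.3.3 (TMM factors, robust quasi-likelihood test, Benjamini-Hochberg adjustment over all genes or sites tested, threshold 0.05) on the 12 libraries. Site usage was tested with the gene's counts as an offset for genes of 2 sites or more whose mean reached 50 counts. A site was joined to a gene when it lay inside it or up to 1000 bp past its end, on its strand. Fraction interactions used 24 libraries. Single values were compared by exact permutation over the 924 splits of 6 against 6. SEs are the log2 change over the square root of F. The tests were checked on simulated data. No pair of libraries within a group was identical. Precision is limited by 3018030 to 6620128 counts a library, and read counts are not corrected for duplicate molecules.

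Genes named are the tested members of the clock lists, up to 10 rises and 10 falls with a mean of at least 20 counts, groups that do not overlap and no clone or model symbol, and up to 2 called members a direction of each other list. Genes outside this rule were chosen after their values were seen: Noct, Lpin1, Nampt, Upp2, Tsc22d3, Zbtb16, Rnf125, Igkc, Npas2, Bhlhe41, Malat1, Neat1, Alb, Errfi1, Cyp2c69, the genes named for a promoter motif and those called only without ZT14 replicate 4. Alternatives were median-ratio factors, a minimum mean of 1 count, a replicate block, all 36 nuclear libraries, replicates 1 to 3 or 4 to 6, each library left out, and DESeq2 1.42.0. Promoters came from RefSeq (GRCm38.p6). The deposited TMM tables and unfiltered site list were not used here. Results for 2 named genes are not reported here.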

Additional observations from a re-analysis of the deposited data

Results flagged for a closer look

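In 10 of the 106 groups of 6 libraries checked (9.43%), 1 library lay far from the other 5 by Dixon's criterion, which chance meets in about 1 of 20 groups. ZT14 replicate 4 was the low library in Wee1 (3.55 CPM, next 10.7) and in Nr1d1 (0.836 CPM, next 6.96) and the high one in Npas2 (6.27 CPM, next 0.518). ZT2 replicate 1 was high in Alas1 (376 CPM, next 104), in Lingo4 (6.34 CPM, next 2.76) and in Malat1 (3362 CPM, next 1282), and low in Bbc3 (17.3 CPM, next 22.8). ZT2 replicate 3 was high in Por (337 CPM, next 237), in the summed blood and immune markers (8235 CPM, next 2086) and in the summed pancreas and fat markers (97.9 CPM, next 50.1). Their causes were not tested.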

How the results depend on the processing

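Of the 69 called genes, 69 kept their call with median-ratio factors and with DESeq2, 64 with a minimum mean of 1 count, 66 with a replicate block and 55 in the fit of all 36 nuclear libraries. Direction did not change in any of these. DESeq2 called 131 genes, replicates 1 to 3 alone 6, replicates 4 to 6 alone 15, and the fits that leave out 1 library 18 to 154. For sites the counts were 66 with all 36 libraries, 1 with replicates 1 to 3, 4 with replicates 4 to 6, and 9 to 97 with 1 library left out. Usage and both interactions gave 0 calls in every alternative run, 2 of which were added after seeing the data: the interaction with total RNA without ZT14 replicate 4 of both fractions (337 genes at an unadjusted p under 0.05) and that with polysomal RNA without the nuclear one (392). The cause of the changes in count was not tested.

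The labels give the groups the same replicate numbers without saying that a number marks a shared mouse or day. Same-numbered ZT2 and ZT14 libraries correlated at 0.01 to 0.53 in their deviations across genes, 3 of 6 above 0.1. In 3 of 6 numbers the 2 libraries were each other's best partner, with the highest r in replicates 1 (0.44) and 3 (0.53). The main test left the number out, and the replicate block took it in. Whether a shared mouse, day or batch lies behind these correlations was not tested. With the replicate block 154 genes were called, 57.8% of them higher against 75.4% without it, 84 sites, and 121 genes in the neighbouring times. Depth limits lowly read genes: Npas2 and Bhlhe41 were under the minimum mean.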
